A study of Homo sapiens with 18 samples.

Results

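The genes described here are 10 that code for proteins of the lipid droplet surface or for proteins that control lipolysis there: PLIN2, PLIN3, PLIN4, PLIN5, HILPDA, G0S2, PNPLA2, ABHD5, CIDEB and CIDEC. They were taken from the count table by symbol and Ensembl identifier, 10 of 61806 genes, and all 10 passed the filter on low counts that left 19743 genes for the tests. The libraries are RNA-seq of HepG2, a human hepatoma cell line, and of APOA4-KO, the HepG2 line in which APOA4 was edited by CRISPR-Cas9. Each line was sampled before hypoxia (0 h) and after 24 h and 48 h in 1% oxygen, with 3 libraries in each of the 6 groups. Cells kept in normal oxygen for 24 h or 48 h were not analysed here, so hypoxia and time in culture cannot be told apart. The lines were compared as 1 line against 1 line, and the edit and any other difference between them cannot be told apart. The study's methods describe picking single colonies after the edit and keeping clones mutated on both alleles, without saying how many clones were sequenced here. Whether the 3 libraries of a group came from separate cultures was not stated in the sources used here, so the p-values measure the spread between these libraries only.

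Lipid droplets store triglyceride and cholesteryl ester in a core that is covered by a phospholipid layer and proteins. Perilipins coat this surface and hold back the lipases, adipose triglyceride lipase (PNPLA2) starts the breakdown of triglyceride with its coactivator ABHD5, and HILPDA and G0S2 are small inhibitors of that lipase. CIDE proteins pass lipid between droplets or onto lipoproteins. PLIN2 is the main coat protein of droplets in liver cells, and PLIN2 and HILPDA are known as genes that rise in low oxygen.

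Over the 6 groups, PLIN2 and HILPDA rose in hypoxia in both lines and rose further in APOA4-KO than in HepG2. The rise of HILPDA in HepG2 at 24 h was small, and its p-value depended on the scaling. PNPLA2 fell in hypoxia in HepG2 at both times, whereas in APOA4-KO it fell at 24 h and was above its 0 h level at 48 h. PLIN3 differed little between groups in size, and PLIN4, PLIN5, ABHD5, CIDEC and G0S2 were present at low levels. A level is given as CPM, the count relative to the total of its library after scaling with TMM factors, a difference as a log2 fold change ± its standard error (SE), and p-values are from edgeR's quasi-likelihood test with Benjamini-Hochberg adjustment over all 19743 genes. A gene past an adjusted p of 0.05 is said to have passed the test, and a gene whose log2 fold change was also 1 or more in size is said to have passed the fold limit.

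Total counts lay between 76481820 and 91604947 in the 18 libraries. APOA4 transcript was still counted in every APOA4-KO library, at 6.99 to 8.54 CPM, against 8.46 to 9.67 CPM in HepG2 at 0 h and 18.9 to 21.7 CPM in HepG2 in hypoxia. The 6 hepatocyte markers summed to 36074 to 55996 CPM, from 36074 to 36381 CPM in HepG2 at 0 h to 54119 to 55996 CPM in APOA4-KO at 24 h, and the part of this shift in the results was not tested. Within this sum, APOB ranged from 8251.55 to 19134.2 CPM, ALB from 13807.7 to 19612.5 CPM and SERPINA1 from 12542.6 to 18004.5 CPM over the 18 libraries. HNF4A ranged from 280 to 392 CPM, AFP from 128 to 1539 CPM and TTR from 41.2 to 174 CPM. The 4 macrophage, 2 endothelial and 2 fibroblast markers summed to at most 14.6, 15.1 and 5.77 CPM. The adipocyte markers ADIPOQ and LEP were at 0 in 13 and 15 of the 18 libraries and summed to at most 0.315 CPM.

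RefSeq start sites were matched for 9 of the 10 genes, and the 250 bases before 3 of them are shown (GRCh38.p14) since they belong to the coat gene that rose most, the other abundant coat gene and the lipase. Capitals mark ACGTG or GCGTG on either strand, the core that hypoxia-inducible factors bind, so that CACGT and CACGC are matches on the opposite strand and CACGTG counts as 2 matches.
PLIN2, chr9:19127493-19127742, minus strand: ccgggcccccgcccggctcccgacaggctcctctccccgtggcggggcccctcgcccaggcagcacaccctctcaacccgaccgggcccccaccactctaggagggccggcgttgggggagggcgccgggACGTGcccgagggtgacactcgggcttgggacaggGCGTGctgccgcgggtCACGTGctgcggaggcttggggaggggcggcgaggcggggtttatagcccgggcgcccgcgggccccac
PLIN3, chr19:4867668-4867917, minus strand: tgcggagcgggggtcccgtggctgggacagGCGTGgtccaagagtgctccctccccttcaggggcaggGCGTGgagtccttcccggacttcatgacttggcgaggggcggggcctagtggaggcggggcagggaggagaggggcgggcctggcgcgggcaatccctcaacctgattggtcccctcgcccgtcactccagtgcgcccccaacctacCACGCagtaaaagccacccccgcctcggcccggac
PNPLA2, chr11:818664-818913, plus strand: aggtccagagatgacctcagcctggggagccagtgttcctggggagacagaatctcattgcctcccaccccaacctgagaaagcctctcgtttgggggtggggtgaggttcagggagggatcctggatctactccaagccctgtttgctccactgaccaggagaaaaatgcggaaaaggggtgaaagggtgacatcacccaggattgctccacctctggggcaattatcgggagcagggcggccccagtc
The PLIN2 window held 4 matches, 3 of ACGTG and 1 of GCGTG, with first bases at -120, -85, -69 and -68 from the start. The PLIN3 window held 3 matches of GCGTG, and the windows of PNPLA2 and PLIN4 held none. G0S2 had 4 matches of GCGTG, PLIN5 had 2, ABHD5 had 1 in 2 of its 3 windows, CIDEB had 1 in 1 of its 2 windows, and both windows of CIDEC had none. Among 35116 RefSeq windows of this length, 43.2% held at least 1 match, 7.76% at least 3 and 3.22% at least 4, with ACGTG in 18.5% and GCGTG in 32.2%. The exact consensus of the PPAR response element, searched for on both strands, was in none of the windows of these genes and in 6 of all 35116.

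Compared per length of gene, by the mean of the deposited FPKM over the 6 groups, PLIN2 had the highest level at 113, followed by PLIN3 at 55.2 and PNPLA2 at 51.7. CIDEB followed at 14.7 FPKM, and HILPDA came next with group means from 4.58 to 20.7 FPKM. CIDEC reached 2.22 FPKM, PLIN4 0.69, ABHD5 0.558, G0S2 0.404 and PLIN5 0.139 FPKM. The group means of PLIN2 ranged from 36.7 FPKM in HepG2 at 0 h to 215 FPKM in APOA4-KO at 24 h, with 203 FPKM in APOA4-KO at 48 h, and those of PLIN3 from 47.5 to 61.5 FPKM.

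The comparison of the lines asked which of these genes differed with the edit at each time. At 0 h, 4 of the 10 genes passed the test, where 30.5% of all genes did, and 0 passed the fold limit (4.31% of all genes). PLIN2, CIDEB and CIDEC were higher in APOA4-KO and PLIN3 was lower. At 24 h, 4 passed the test (48.1% of all genes), PLIN2 and HILPDA higher and PLIN3 and PNPLA2 lower, and PLIN2 and HILPDA also passed the fold limit (7.77% of all genes). At 48 h, 6 passed the test, all of them higher in APOA4-KO: PLIN2, HILPDA, PNPLA2, CIDEC, PLIN4 and CIDEB. Of all genes, 50.8% passed the test at 48 h and 23.5% were higher, and 13.6% passed the fold limit, as PLIN2 and HILPDA did. The median log2 fold change of the 10 genes was 0.22, -0.07 and 0.51 at 0 h, 24 h and 48 h, beside -0.01, 0.01 and -0.04 over all tested genes. With library size alone as the scaling, which moved the median gene by -0.15 at 48 h, PLIN2 and HILPDA stayed past the test at 48 h at 0.99 and 0.87 and missed the fold limit. Leaving out 1 library lowered the count past the test at 0 h from 4 to as few as 2 (HepG2 0 h replicate 3 or APOA4-KO 0 h replicate 3). Of the 4 genes at 0 h, CIDEB was past the test in 9 of 24 refits and CIDEC in 22. The count past the fold limit at 48 h went from 2 to 1 without APOA4-KO 48 h replicate 2.

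**Figure D1:**
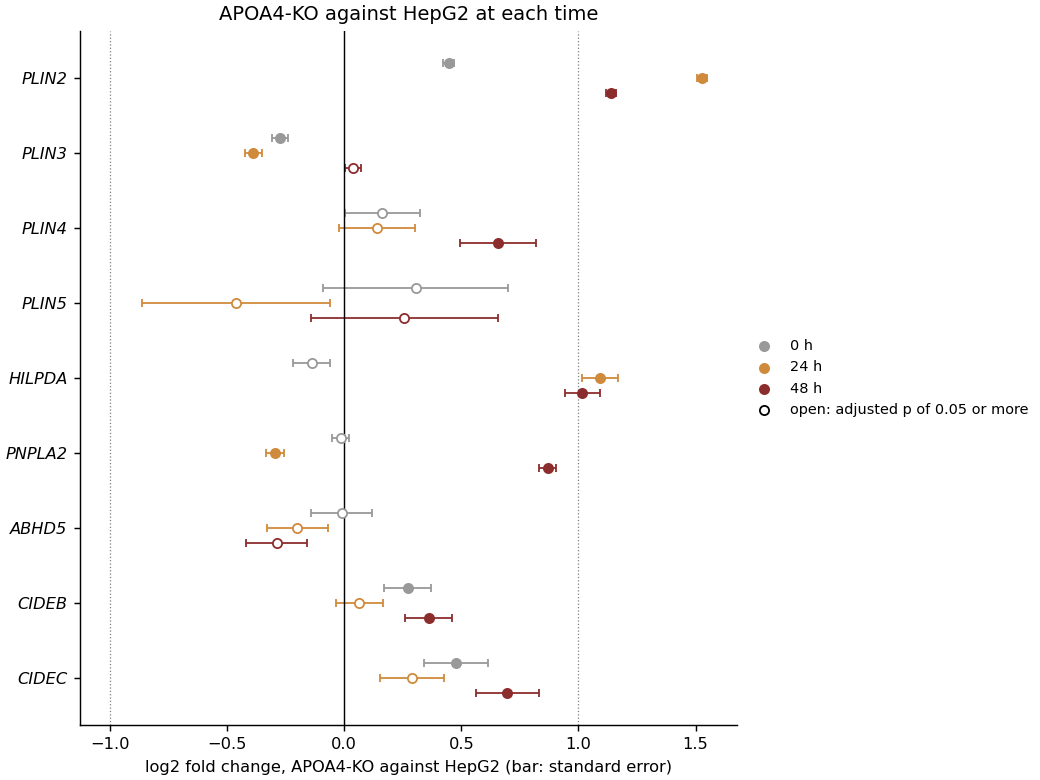
Log2 fold change of APOA4-KO against HepG2 (horizontal axis, bars ± SE) for each gene except G0S2, at 0 h (grey), 24 h (orange) and 48 h (dark red). Filled points passed an adjusted p of 0.05 and dotted lines mark the fold limit of 1. PLIN2 and HILPDA lie beyond the limit in hypoxia, and PNPLA2 lies below 0 at 24 h and above 0 at 48 h.

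Hypoxia was compared with 0 h within each line. In HepG2, 4 of the 10 genes passed the test at 24 h (29.6% of all genes) and 1, PLIN2, passed the fold limit (3.08%). At 48 h in HepG2, 6 passed the test (27.7%) and PLIN2 and HILPDA passed the fold limit (2.18%). From 24 h to 48 h in HepG2, 4 passed the test (30.5%) and 0 the fold limit (2.12%). In APOA4-KO, 6 passed the test after 24 h (44.4%) and 5 after 48 h (49.9%), with PLIN2 and HILPDA past the fold limit at each time (5.88% and 12.2%). Of the 6 in APOA4-KO after 24 h, PLIN3 (-0.09) was past the test in 9 of 24 refits and PLIN4 (-0.42) in 11. That count ranged from 4 to 7 over the refits. Of the 6 in HepG2 at 48 h, PLIN3 (-0.10) was past the test in 8 of 24 refits. From 24 h to 48 h in APOA4-KO, 5 passed the test, all higher (41.3% of all genes in either direction, 21.9% higher), and 1, PNPLA2, passed the fold limit (5.66%). With library size alone as the scaling, PLIN2 in HepG2 at 24 h (0.96) and PNPLA2 in APOA4-KO from 24 h to 48 h (0.90) missed the fold limit and stayed past the test. Leaving out HepG2 24 h replicate 1 or HepG2 48 h replicate 3 lowered the count past the test from 24 h to 48 h in HepG2 from 4 to 2, and leaving out APOA4-KO 24 h replicate 1 or APOA4-KO 48 h replicate 2 lowered that in APOA4-KO from 5 to 3. Without HepG2 24 h replicate 3, 1 gene passed the fold limit from 24 h to 48 h in HepG2, and without APOA4-KO 24 h replicate 2, 0 did in APOA4-KO.

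Whether the lines changed unequally from 0 h was tested as an interaction. At 24 h it passed the test for PLIN2, HILPDA and PNPLA2, 3 of the 10 genes (32.2% of all genes), and PLIN2 and HILPDA passed the fold limit (2.59%). At 48 h it passed the test for PLIN2, HILPDA, PNPLA2 and PLIN3, 4 genes, each with a higher value in APOA4-KO (36.4% of all genes, 18.6% in that direction), and HILPDA alone of the 10 passed the fold limit (7.42%). With library size alone, the interaction of HILPDA at 48 h was 0.98 and missed the fold limit, and that scaling moved the median gene by -0.17.

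Among the coat genes, PLIN2 (ENSG00000147872, chromosome 9, 19108375 to 19149290, minus strand, GRCh38) gave the largest counts. In HepG2 its level was 183, 178 and 191 CPM at 0 h, 377, 372 and 378 CPM at 24 h and 508, 507 and 507 CPM at 48 h. In APOA4-KO its level was 256, 245 and 251 CPM at 0 h, 1075, 1073 and 1100 CPM at 24 h and 1112, 1132 and 1111 CPM at 48 h. No group overlapped the next in the order of levels, and every APOA4-KO library in hypoxia was above every HepG2 library. APOA4-KO exceeded HepG2 at 0 h by 0.45 ± 0.02 (edgeR, adjusted p = 1.7e-11), at 24 h by 1.53 ± 0.02 (1.9e-19) and at 48 h by 1.14 ± 0.02 (4.7e-18). In HepG2, PLIN2 rose 2.04-fold from 0 h to 24 h (log2 1.03 ± 0.02, adjusted p = 1e-16) and a further 1.35-fold to 48 h (0.43 ± 0.02, adjusted p = 3e-11). The course in APOA4-KO was different, since the level was 4.32-fold that of 0 h at 24 h (2.11 ± 0.02, adjusted p = 3.8e-21) and 4.46-fold at 48 h. Between 24 h and 48 h APOA4-KO gave 0.05 ± 0.02 (adjusted p = 0.098), and this small step depended on the scaling, at 0.07 in DESeq2 (adjusted p = 0.0023) and with the sign turned to -0.08 with library size alone (edgeR, adjusted p = 0.0025). The rise from 0 h was larger in APOA4-KO than in HepG2 by 1.08 ± 0.03 at 24 h (adjusted p = 2e-14) and by 0.69 ± 0.03 at 48 h (adjusted p = 2.8e-12).

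PLIN3 (ENSG00000105355, chromosome 19, 4838341 to 4867768, minus strand), a widely expressed perilipin that moves from the cytosol to new droplets, was at 173, 167 and 166 CPM in HepG2 at 0 h, 174, 168 and 171 CPM at 24 h and 163, 156 and 153 CPM at 48 h. Levels in APOA4-KO were 142, 136 and 140 CPM at 0 h, 129, 130 and 133 CPM at 24 h and 155, 171 and 158 CPM at 48 h. The lines did not overlap at 0 h and 24 h and overlapped at 48 h. PLIN3 was lower in APOA4-KO by -0.28 ± 0.04 at 0 h (edgeR, adjusted p = 6.2e-06) and by -0.39 ± 0.04 at 24 h (adjusted p = 2.2e-08). At 48 h the difference was 0.04 ± 0.04 (adjusted p = 0.41), and it depended on the scaling, at 0.09 in DESeq2 (adjusted p = 0.033) and with the sign turned to -0.11 with library size alone (edgeR, adjusted p = 0.0072). In APOA4-KO, PLIN3 rose from 24 h to 48 h by 0.30 ± 0.04 (adjusted p = 9.8e-07), and in HepG2 it fell by 0.12 over the same step (SE 0.04, adjusted p = 0.012), a call lost with library size alone and without HepG2 24 h replicate 1, HepG2 48 h replicate 2 or HepG2 48 h replicate 3 (adjusted p of 0.056 to 0.13 without these). The interaction at 48 h was 0.31 ± 0.05 (adjusted p = 5.1e-05).

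PLIN4 and PLIN5 lie beside each other on the minus strand of chromosome 19 (4502180 to 4518465 and 4522531 to 4535224). PLIN4 (ENSG00000167676), a perilipin best known from adipocytes, was at 4.51, 5.00 and 6.27 CPM in HepG2 at 0 h and at 2.48, 3.80 and 3.03 CPM at 48 h. The APOA4-KO libraries had 6.26, 5.29 and 6.11 CPM at 0 h and at 5.50, 4.69 and 4.48 CPM at 48 h. Its HepG2 libraries at 48 h did not overlap those of HepG2 at 0 h or of APOA4-KO at 48 h. PLIN4 fell in HepG2 by 0.76 from 0 h to 48 h (SE 0.16, edgeR, adjusted p = 0.0015) and was higher in APOA4-KO at 48 h by 0.66 ± 0.16 (adjusted p = 0.0022). The interaction for that step was 0.49 ± 0.23 (adjusted p = 0.11), and 0.67 without HepG2 48 h replicate 2 (adjusted p = 0.028). PLIN5 (ENSG00000214456), the perilipin of tissues that burn fat, was between 0.205 and 1.15 CPM in the 18 libraries. All neighbouring groups overlapped for PLIN5, and its adjusted p in edgeR was 0.18 or above in all 11 comparisons. Without APOA4-KO 24 h replicate 1, the change in APOA4-KO from 0 h to 24 h was past the test (-1.12, adjusted p = 0.044).

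Among the inhibitors of the lipase, HILPDA (ENSG00000135245, chromosome 7, 128455849 to 128458418, plus strand) was at 10.8, 9.96 and 10.2 CPM in HepG2 at 0 h, 11.8, 11.1 and 14.3 CPM at 24 h and 23.6, 23.0 and 23.4 CPM at 48 h. The levels of HILPDA in APOA4-KO were 9.87, 9.58 and 8.63 CPM at 0 h, 25.5, 27.6 and 26.2 CPM at 24 h and 45.0, 49.4 and 47.3 CPM at 48 h. In CPM no group overlapped the next, and the APOA4-KO libraries at 24 h were already above those of HepG2 at 48 h. In the deposited FPKM, HepG2 at 0 h (4.8 to 5.21) overlapped APOA4-KO at 0 h (4.24 to 4.81) and HepG2 at 24 h (5.08 to 6.52). At 0 h the lines differed by -0.14 ± 0.08 (edgeR, adjusted p = 0.20). APOA4-KO exceeded HepG2 at 24 h by 1.09 ± 0.08 (adjusted p = 5.2e-10) and at 48 h by 1.02 ± 0.07 (9.3e-10). HepG2 showed a small rise at 24 h, 0.26 ± 0.08 (adjusted p = 0.013), a call lost in 5 of 24 refits. It was lost without HepG2 24 h replicate 3 (edgeR, adjusted p = 0.12) and without HepG2 0 h replicate 2 (0.059). The settings without TMM lost it too, at adjusted p = 0.061 with library size alone (edgeR). Limma gave 0.077 on log2(FPKM + 1) and 0.070 on log2(FPKM + 0.1). At 48 h HepG2 had a 2.26-fold level against 0 h (1.18 ± 0.08, edgeR, adjusted p = 1.2e-09). APOA4-KO showed a 2.82-fold level at 24 h (1.50 ± 0.08, adjusted p = 9.1e-12) and a 5.05-fold level at 48 h (2.33 ± 0.08, adjusted p = 1.2e-14). HILPDA rose in both lines from 24 h to 48 h, by 0.92 ± 0.08 in HepG2 (adjusted p = 2.6e-08) and by 0.84 ± 0.07 in APOA4-KO (adjusted p = 2.7e-08). The interaction at 24 h was 1.23 ± 0.11 (adjusted p = 6.1e-08), with 1.16 ± 0.11 at 48 h (6.9e-08).

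G0S2 (ENSG00000123689, chromosome 1, 209675420 to 209676388, plus strand), the inhibitor first found in cells leaving the resting state, gave few counts. HepG2 had 77, 65 and 4 counts before hypoxia, 31, 6 and 31 after 24 h and 0, 12 and 68 after 48 h. APOA4-KO had 53, 64 and 77 counts before hypoxia, 16, 0 and 23 after 24 h and 8, 0 and 9 after 48 h. In APOA4-KO the 0 h libraries were above all those in hypoxia, and in HepG2 the times overlapped. The log2 fold change in APOA4-KO from 0 h to 48 h was -3.25 ± 1.39 (edgeR, adjusted p = 0.062, past the test in 6 of 24 refits, 3 of which left out HepG2 0 h replicate 3, HepG2 48 h replicate 1 or APOA4-KO 24 h replicate 2, at 0.049, 0.035 and 0.044), and no comparison of G0S2 passed the test in the main model. Counts of 4, 8 and 12 were 1.58 to 3.12 times as frequent as their neighbours in these libraries, so the small counts of this gene need not each stand for a read pair.

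The lipase gene PNPLA2 (ENSG00000177666, chromosome 11, 818902 to 825573, plus strand) was at 208, 218 and 218 CPM in HepG2 at 0 h, 188, 174 and 180 CPM at 24 h and 172, 159 and 163 CPM at 48 h. In APOA4-KO it was at 215, 212 and 210 CPM at 0 h, 155, 140 and 147 CPM at 24 h and 301, 306 and 296 CPM at 48 h. The lines overlapped at 0 h, APOA4-KO was lower in every library at 24 h, and APOA4-KO at 48 h was above all other libraries. APOA4-KO against HepG2 was -0.02 ± 0.04 at 0 h (edgeR, adjusted p = 0.82). It was lower at 24 h by -0.30 ± 0.04 (adjusted p = 1.5e-06) and higher at 48 h by 0.87 ± 0.04 (3.8e-13). In HepG2, PNPLA2 fell by 0.25 at 24 h (SE 0.04, adjusted p = 3.6e-05) and by 0.38 at 48 h against 0 h (SE 0.04, adjusted p = 2.4e-07). In APOA4-KO it fell by 0.53 at 24 h (SE 0.04, adjusted p = 6.6e-10) and was above 0 h by 0.50 ± 0.04 at 48 h (adjusted p = 1e-09), a 2.04-fold step from 24 h (1.03 ± 0.04, adjusted p = 1.3e-13). The interaction at 24 h was -0.28 ± 0.05 (adjusted p = 0.00031), with 0.88 ± 0.05 at 48 h (1.4e-10). These directions at 24 h and 48 h were kept in all 24 refits, with the line difference at 48 h between 0.71 and 0.92.

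ABHD5 (ENSG00000011198, chromosome 3, 43690108 to 43734371, plus strand), whose protein activates the lipase, was far lower and flatter. Its level was 4.04 to 5.09 CPM over the 9 HepG2 libraries, and in APOA4-KO it was 4.29 to 4.79 CPM at 0 h, 3.69 to 3.96 CPM at 24 h and 3.40 to 4.44 CPM at 48 h. At 48 h the line difference was -0.29 ± 0.13 (edgeR, adjusted p = 0.075), and no comparison of ABHD5 passed the test. This difference was past the test with library size alone (-0.44, adjusted p = 0.0077) and without APOA4-KO 48 h replicate 3 (-0.43, adjusted p = 0.015), as was the change from 0 h to 48 h in APOA4-KO.

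Of the CIDE genes, CIDEB (ENSG00000136305, chromosome 14, 24305096 to 24311430, minus strand), which acts in the lipidation of very low density lipoprotein, was at 53.8, 43.2 and 43.6 CPM in HepG2 at 0 h, 31.2, 39.1 and 34.9 CPM at 24 h and 31.2, 31.9 and 39.6 CPM at 48 h. The levels of CIDEB in APOA4-KO were 51.0, 60.2 and 58.4 CPM at 0 h, 38.0, 34.7 and 37.3 CPM at 24 h and 45.5, 44.3 and 41.9 CPM at 48 h. Within each line the hypoxia libraries were below those at 0 h, and the lines overlapped at 0 h and 24 h. CIDEB fell by 0.42 at 24 h in HepG2 (SE 0.10, edgeR, adjusted p = 0.0033) and by 0.46 at 48 h (adjusted p = 0.0018). In APOA4-KO it fell by 0.62 at 24 h (SE 0.10, adjusted p = 3.4e-05) and was below 0 h by -0.37 ± 0.10 at 48 h (adjusted p = 0.005). It was higher in APOA4-KO at 48 h by 0.36 ± 0.10 (adjusted p = 0.0054), a call lost with library size alone (0.21, adjusted p = 0.096), and the difference of 0.27 ± 0.10 at 0 h (adjusted p = 0.048) was past the test in 9 of 24 refits, with 0.21 the lowest value without 1 library (HepG2 0 h replicate 2). All 3198 exon bases of CIDEB overlap genes of the opposite strand, 1954 of them NOP9 with 330492 counts in all, and since strand in the counting is not stated these reads cannot be told apart. Smaller stretches are shared for PLIN5 (21.7% of exon bases), PLIN3 (17.8%), HILPDA (13.2%) and PNPLA2 (10.4%). The overlapping genes had 1127 counts over the 18 libraries for PLIN5, 176 and 612 for HILPDA, 11 for PNPLA2 and 1 for PLIN3. PLIN5 itself had only 16 to 103 counts in a library.

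CIDEC (ENSG00000187288, chromosome 3, 9866711 to 9880254, minus strand), which promotes the fusion of droplets and is known from fat and fatty liver, was at 3.60, 4.02 and 3.27 CPM in HepG2 at 0 h and 3.20, 4.22 and 3.83 CPM at 48 h. The levels of CIDEC in APOA4-KO were 5.00, 4.62 and 5.54 CPM at 0 h, 4.24, 4.61 and 4.86 CPM at 24 h and 5.93, 6.71 and 5.59 CPM at 48 h. In CPM, every APOA4-KO library was above every HepG2 library. The closest were APOA4-KO 24 h replicate 1 at 4.24 CPM and HepG2 48 h replicate 2 at 4.22 CPM. In the deposited FPKM both of these were at 2.17. APOA4-KO exceeded HepG2 at 0 h by 0.48 ± 0.14 (edgeR, adjusted p = 0.011, and 0.062 or 0.061 without replicate 3 of HepG2 or of APOA4-KO at 0 h) and at 48 h by 0.70 ± 0.14 (0.00024). The value at 24 h was 0.29 ± 0.14 (adjusted p = 0.091, and 0.038 with library size alone). HepG2 at 24 h stood 0.04 ± 0.14 from its 0 h level on the log2 scale, and at 48 h 0.05 ± 0.14, with adjusted p of 0.88 and 0.87. CIDEC rose from 24 h to 48 h in APOA4-KO by 0.41 ± 0.13 (adjusted p = 0.02, and 0.08 or 0.098 without APOA4-KO 24 h replicate 1 or APOA4-KO 48 h replicate 2). Its interactions were -0.19 ± 0.19 at 24 h and 0.22 ± 0.19 at 48 h (adjusted p = 0.54 and 0.43).

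Ratios of FPKM within a library do not depend on the scaling between libraries, and are given as a description without a test. The ratio of HILPDA to PNPLA2, inhibitor to lipase, was 0.0890 ± 0.0063 (SD, n = 3), 0.127 ± 0.017 and 0.262 ± 0.0069 in HepG2 at 0 h, 24 h and 48 h. In APOA4-KO it was 0.0815 ± 0.0049, 0.333 ± 0.030 and 0.291 ± 0.012. The lines did not overlap at 24 h, where HepG2 lay at 0.116 to 0.146 and APOA4-KO at 0.304 to 0.364, and at 48 h they stood close, at 0.254 to 0.267 and 0.277 to 0.299. The ratio of PLIN2 to PLIN3, between coat genes, went from 0.597 ± 0.028 to 1.20 ± 0.017 and 1.77 ± 0.052 in HepG2, and from 0.983 ± 0.0012 to 4.53 ± 0.036 and 3.80 ± 0.16 in APOA4-KO. At every time the APOA4-KO libraries were above those of HepG2 in this ratio.

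Over the 18 libraries, the only pair of the 10 genes with a Pearson r of log2 CPM beyond 0.8 in size was PLIN2 and HILPDA (r = 0.92), and the libraries share their groups, so the value describes the pattern over groups. Among 8557 genes of at least 10 CPM, the 3 most like PLIN2 were SLC7A2 (r = 0.995), PLOD2 (r = 0.994) and TFRC (r = 0.993). For HILPDA they were GPR157 (r = 0.988), ADM (r = 0.984) and WDR43 (r = 0.979). For PNPLA2 they were PIAS4 (r = 0.982), FOXP4 (r = 0.978) and ATN1 (r = 0.970). The mean level of ADM in APOA4-KO went from 8.73 to 49.7 and 104 CPM at 0 h, 24 h and 48 h, and that of FOXP4 from 221 to 162 and 315 CPM, the order that HILPDA and PNPLA2 had.

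A list of 29 other lipid droplet genes, of which 28 were tested, gave the surroundings of the 10. Between the lines, 16, 18 and 20 of the 28 passed the test at 0 h, 24 h and 48 h, beside 30.5%, 48.1% and 50.8% of all genes. Those past the test were 8, 10 and 8 higher and 8, 8 and 12 lower in APOA4-KO. The fold limit was passed by 3, 3 and 7 of the 28, beside 4.31%, 7.77% and 13.6% of all genes. The median log2 fold change of the 28 was 0.07, 0.10 and -0.09 at the 3 times, beside -0.01, 0.01 and -0.04 over all tested genes. ACSL3, an acyl-CoA synthetase of nascent droplets, was at 119, 122 and 153 CPM in HepG2 in order of time, and at 196, 384 and 347 CPM in APOA4-KO. It was higher in APOA4-KO by 0.72 ± 0.03, 1.65 ± 0.03 and 1.18 ± 0.03 (edgeR, adjusted p of 1.1e-16 at 48 h). DGAT1 and DGAT2, which make triglyceride from diacylglycerol, went the other way. DGAT1 was at 154 CPM in HepG2 and 47.7 CPM in APOA4-KO at 48 h (-1.69 ± 0.03, adjusted p = 9e-18), and DGAT2 at 107 to 111 CPM in HepG2 and 36.3 to 40.4 CPM in APOA4-KO (-1.52 ± 0.05, adjusted p = 3.3e-15). BSCL2, seipin, was at 7.05 to 16.0 CPM in HepG2 at 48 h and 2.81 to 6.23 CPM in APOA4-KO (-1.48 ± 0.32, adjusted p = 0.00078), with 51.9% of its exon bases shared with other genes, among them the HNRNPUL2-BSCL2 readthrough, which makes its counts uncertain. These 3 genes were already lower in APOA4-KO at 0 h, past the test in all 24 refits. The line differences at 0 h and 24 h were -0.76 and -1.03 for DGAT1, -0.75 and -0.55 for DGAT2 and -2.17 and -1.51 for BSCL2. HSD17B13 had 0 counts in the 3 HepG2 libraries at 48 h and 18, 35 and 0 in APOA4-KO. Its mean in APOA4-KO was 7.07-fold a floor of 3 counts a library. Such counts need not each stand for a read pair, so this is not a lower bound. The call of HSD17B13 (edgeR, adjusted p = 0.037) held in 17 of 24 refits. It was lost in DESeq2 (adjusted p = 0.068) and in edgeR without the filter (0.057). It was also lost when any 1 of the HepG2 48 h libraries, or APOA4-KO 48 h replicate 1 or 2, was left out (edgeR, adjusted p of 0.058 to 0.091). Of the perilipin and CIDE families, PLIN1, the coat of adipocytes, was higher in APOA4-KO at 0 h, at 1.28 to 1.68 CPM against 0.325 to 0.726 CPM (1.50 ± 0.49, adjusted p = 0.026), a call lost without HepG2 0 h replicate 1 or 3 or APOA4-KO 0 h replicate 1 or 2 (adjusted p of 0.065 to 0.11), and CIDEA had 0 counts in all 18 libraries. The line difference of PLIN1 was 0.74 at 24 h and -0.55 at 48 h, past the test in 0 of 24 refits at each time. Within APOA4-KO, PLIN1 changed from 0 h by -1.98 at 24 h and -2.71 at 48 h, past the test in all 24 refits.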

How the data were processed

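Poly(A) RNA of 18 samples was sequenced by the authors, whose methods name HISAT2 alignment to GRCh38 and featureCounts, while the submitters' processing notes name fastp, HISAT2 and StringTie. The deposited counts are whole numbers for 61806 genes without normalization. The deposited FPKM values, for 33601 genes, are those counts per length and per library total, as computed by the authors. Whether the counting used strand is not stated. Symbols were matched for 61757 identifiers. Groups and replicates came from the sample titles.

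Counts were filtered with filterByExpr on the 6 groups, scaled with TMM and fitted with edgeR 4.0.16 (R 4.3.3) in 1 quasi-likelihood model of all 18 libraries with a coefficient per group. Its 11 comparisons share libraries: within a line, each time point enters 2 of the 3 comparisons between times. Calls needed an adjusted p under 0.05 (Benjamini-Hochberg over 19743 genes), and the fold limit was an absolute log2 fold change of 1. The fits were tested on simulated data. DESeq2 1.42.0 was an alternative, as were library size alone, no filter, the replicate number as a block, limma 3.58.1 on log2(FPKM + 1) and log2(FPKM + 0.1), and each library left out, 24 refits in all. Gene models and overlaps are from GENCODE 29, start-site windows from RefSeq.

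Named were the 10 genes, PLIN1 and CIDEA, and, of the other list, the 5 with the largest absolute log2 fold change between the lines at 24 h or 48 h among those past the fold limit. Genes of like pattern were the 3 with the highest r among tested genes of at least 10 CPM (log2 CPM, prior count of 2). The genes and lists were chosen with earlier results of these data known. The bulk counts do not tell fewer cells of a type from less RNA per cell.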

Additional observations from a re-analysis of the deposited data

Results flagged for a closer look

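The change from 0 h differed between APOA4-KO and HepG2, by the interaction term of the edgeR model (adjusted over 19743 genes), for 3 of the 10 genes at 24 h and 4 at 48 h. Of all tested genes, 32.2% passed the same test at 24 h and 36.4% at 48 h. At 24 h the log2 difference, APOA4-KO minus HepG2, was 1.08 for PLIN2, 1.23 for HILPDA and -0.28 for PNPLA2. At 48 h it was 0.69 for PLIN2, 1.16 for HILPDA, 0.88 for PNPLA2 and 0.31 for PLIN3. PNPLA2 had a negative value at 24 h and a positive value at 48 h, both past the test, and PLIN2 and HILPDA had positive values at both times. The value of PLIN3 at 24 h, -0.11, did not pass the test. With 3 libraries in each group, each library was left out in turn, and none was removed from the main model as an outlier.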

How the results depend on the processing

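Over 24 refits of 16 named genes in 11 comparisons (4224 values), 4051 kept their direction and their side of the threshold, 130 lost and 37 gained the test and 6 turned. Another 84 changed sign with neither value past the test and were counted as kept. The 6 that turned were PLIN3 between the lines at 48 h, at -0.1124 with library size alone, -0.1106 on log2(FPKM + 1) and -0.1124 on log2(FPKM + 0.1), and PLIN2 in APOA4-KO from 24 h to 48 h, at -0.0826, -0.0821 and -0.0824. All 3 of these settings scale by the library total, without TMM. The same 3 settings gave 0 genes past the fold limit, in place of 2 between the lines at 48 h, and of 1 in HepG2 at 24 h, in APOA4-KO from 24 h to 48 h and for the interaction at 48 h. In HepG2 from 24 h to 48 h they left 2 of 4 past the test, and library size alone put 1 gene past the fold limit in place of 0. Leaving out 1 library gave 2 to 4 genes past the test between the lines at 0 h and in HepG2 from 24 h to 48 h, and 3 to 5 in APOA4-KO from 24 h to 48 h. It gave 1 to 2 past the fold limit between the lines at 48 h and 0 to 1 from 24 h to 48 h in each line. For the other list, the count past the fold limit on log2(FPKM + 1) was 0, 1 and 3 between the lines at 0 h, 24 h and 48 h (3, 3 and 7 in the main model), 0 in HepG2 from 24 h to 48 h (1), 1 and 3 in APOA4-KO at 24 h and 48 h (3 and 6) and 0 in APOA4-KO from 24 h to 48 h (1). In the last comparison it was 0 on log2(FPKM + 0.1) and 2 with library size alone, and for the interaction at 48 h it was 1 without the filter (2). Leaving out 1 library, these counts were 1 to 3, 3 to 5 and 5 to 8 between the lines, 1 to 2 in APOA4-KO from 24 h to 48 h and 1 to 3 for the interaction at 48 h. With library size alone, mean levels moved to 365 and 523 CPM for PLIN2 in HepG2 at 24 h and 48 h, and to 259.7, 1100.2 and 1039 CPM in APOA4-KO at 0 h, 24 h and 48 h. PLIN3 moved to 166 CPM in HepG2 at 24 h and to 144 and 149.8 CPM in APOA4-KO at 0 h and 48 h, CIDEB to 40.8 CPM and PNPLA2 to 279 CPM in APOA4-KO at 48 h, PNPLA2 to 220.02 CPM in APOA4-KO at 0 h, and HILPDA to 24.1 and 43.9 CPM in HepG2 and APOA4-KO at 48 h. With the replicate block, the counts of both lists stayed within 1.5 times the main ones, 5 single calls were lost and 1 (G0S2 in APOA4-KO at 48 h, -3.61) was gained. Same-numbered libraries correlated at -0.0539 to 0.0511 in their deviations from the group means over 27 pairs. No pairing by number was seen in these values, and they do not decide whether same-numbered libraries shared a culture or preparation. Depth limits G0S2, PLIN5, PLIN1 and HSD17B13.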
